A study of Homo sapiens with 12 samples.

Results

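HAND1, HAND2, ISL1, FOXF1, PITX1, MEF2C, NKX2-5 and FOXC1 are transcription factors known from lateral plate and cardiac mesoderm, and they were followed here through 12 RNA-seq libraries of a human embryonic stem cell line. The 8 genes were chosen by name, with earlier results of these data known. They are among 35940 gene symbols in the table, and each has 1 identifier there. All 8 passed the filter on low counts that left 17047 genes for testing. The line was ESI017 with an mCitrine reporter on SOX2, a transcription factor of pluripotent and neural cells, and all colonies were confined to printed adhesive patterns and kept for 3 days in N2B27 medium. Control colonies (2 libraries) received nothing else, and the labels give no sorting gate for them. Treated colonies received FGF8 at 200 ng/ml together with WNT3A at 100, 300 or 1000 ng/ml and were sorted into SOX2-positive and SOX2-negative cells. There were 2 libraries for each gate at 100 and at 1000 ng/ml and 1 for each gate at 300 ng/ml. No group had WNT3A without FGF8, so the effects of these factors against control cannot be told apart, and both gates of a dose came from the same colonies of 1 reporter line.

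HAND1 and HAND2 are basic helix-loop-helix factors of the lateral plate and heart, ISL1 is a LIM homeodomain factor that marks cardiac progenitors of the second heart field, and NKX2-5 is a homeodomain factor at the centre of the cardiac programme. MEF2C is a MADS-box factor that acts with them on cardiac muscle genes. FOXF1 is a forkhead factor of splanchnic, gut-lining mesoderm, PITX1 a homeodomain factor of hindlimb and oral ectoderm, and FOXC1 a forkhead factor of paraxial and cardiac mesoderm. WNT and BMP signals are known inputs into this group, and GATA factors bind the regulatory regions of several of its members. None of the 8 is restricted to mesoderm: ISL1 is also known from motor neurons, HAND1 from trophoblast and amnion, and FOXC1 from neural crest.

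The stretches upstream of HAND1, HAND2 and ISL1 are shown for the letters that GATA factors are known to bind, since GATA4 and GATA6 are co-regulators of these genes in the heart. They are the 250 bases before the start in RefSeq on GRCh38.p14, read 5' to 3' on the gene's strand, with GATAA and its reverse complement TTATC in capitals. HAND1 lies on the minus strand at chr5:154478228-154478477, HAND2 on the minus strand at chr4:173530230-173530479 and ISL1 on the plus strand at chr5:51383198-51383447.
HAND1: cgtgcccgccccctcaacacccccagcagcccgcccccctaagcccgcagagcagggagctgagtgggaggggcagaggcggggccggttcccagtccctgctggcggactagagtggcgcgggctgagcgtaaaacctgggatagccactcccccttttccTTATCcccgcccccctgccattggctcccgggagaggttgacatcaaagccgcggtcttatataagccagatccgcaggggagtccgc
HAND2: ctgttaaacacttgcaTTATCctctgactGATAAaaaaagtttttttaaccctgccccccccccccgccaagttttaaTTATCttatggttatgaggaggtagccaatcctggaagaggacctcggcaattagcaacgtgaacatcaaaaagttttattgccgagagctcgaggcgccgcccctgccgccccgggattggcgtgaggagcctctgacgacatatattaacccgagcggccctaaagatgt
ISL1: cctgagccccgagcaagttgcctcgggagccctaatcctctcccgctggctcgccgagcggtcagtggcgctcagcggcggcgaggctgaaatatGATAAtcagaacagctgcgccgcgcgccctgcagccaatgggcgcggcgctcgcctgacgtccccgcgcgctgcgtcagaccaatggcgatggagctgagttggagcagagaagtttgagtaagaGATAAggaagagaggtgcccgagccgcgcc
GATAA, searched on both strands, was found 3 times upstream of HAND2, 2 times upstream of ISL1 and 1 time upstream of HAND1, and it occurs in 20.4% of 35116 windows of the same length. The HAND1 stretch also holds TATAA, which overlaps no GATAA there and is found in 18.9% of windows, and ATCAAAG, the TCF/LEF letters, 46 bases before the start, found in 2.26% of windows. The windows of PITX1 and FOXC1 hold no GATAA. Of the 8 members, 6 matched an entry of the promoter table, and MEF2C, which was not called between gates, has 7 windows there, 3 of them with GATAA. These are matches of letters, not binding sites.

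On GRCh38 (GENCODE 29), 5 of the 8 genes lie on chromosome 5: ISL1 at 51383391 to 51394738, MEF2C at 88717117 to 88904257, PITX1 at 135027735 to 135034813, HAND1 at 154474972 to 154478264 and NKX2-5 at 173232109 to 173235357. HAND2 lies on chromosome 4 at 173524969 to 173530229, FOXF1 on chromosome 16 at 86510527 to 86515418 and FOXC1 on chromosome 6 at 1609972 to 1613897. The stretches shown above for HAND1 and ISL1 overlap these gene spans, so they are upstream of the RefSeq start only. The GATAA of ISL1 nearest that start and the TATAA of HAND1 lie inside the spans given here. HAND2, PITX1 and MEF2C overlap antisense genes in this annotation. Whether strand was used in counting is not given in the sources used here, so reads of these 3 genes and of their antisense partners cannot be told apart.

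Levels are CPM, estimated counts scaled to a common library size with TMM factors. Library totals were 16474856 to 28079048 estimated counts. SOX2 itself was at 418 to 467 CPM in SOX2-positive, 651 and 676 in control and 1.85 to 5.98 in SOX2-negative libraries. On the first principal component (46.3% of the variance) the SOX2-negative libraries lay at 72.6 to 88.2 and all others at -68.3 to -44.3. On the second (16.3%), SOX2-negative replicate 2 at 100 ng/ml lay at -48 and the other SOX2-negative libraries at -0.286 to 12.9, so that library stood apart. Replicate 2 is a biological repeat of the same line, and p-values measure the spread between such repeats.

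The levels of the 8 regulators separated the gates. Summed over the 8 genes, SOX2-negative libraries had 86.7 to 285.4 CPM, SOX2-positive libraries 1.69 to 10.41 and controls 27.71 and 29.26. Between SOX2-negative and SOX2-positive cells, averaged over 100 and 1000 ng/ml, 6 of the 8 were called higher and none lower at an adjusted p under 0.05 (edgeR quasi-likelihood test, Benjamini-Hochberg over all genes tested). Of all genes tested, 12.9% were called higher and 24% in either direction. As the members were chosen with earlier results of these data known, their excess over this share is a description only. HAND1, ISL1, FOXF1, PITX1, NKX2-5 and FOXC1 were higher in SOX2-negative than in SOX2-positive cells, and HAND2 and MEF2C did not pass. The same 6 genes were called at 100 ng/ml alone (background 9.21% higher) and at 1000 ng/ml alone (background 6.35% higher). For these 6, every SOX2-negative library at 100 and 1000 ng/ml lay above every SOX2-positive one, which held for 13.5% of all genes tested. The median log2 fold change of the 8 was 5.28, against 0.01 for all genes tested, and 5.15 with HAND2 and NKX2-5 set to the lower bound that their absent counts at 100 ng/ml allow. HAND2, PITX1 and NKX2-5 had under 10 counts in every library outside SOX2-negative cells. They passed the filter on low counts only through that gate. Their direction in the counts and median above was thus largely set by the filter.

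**Figure D1:**
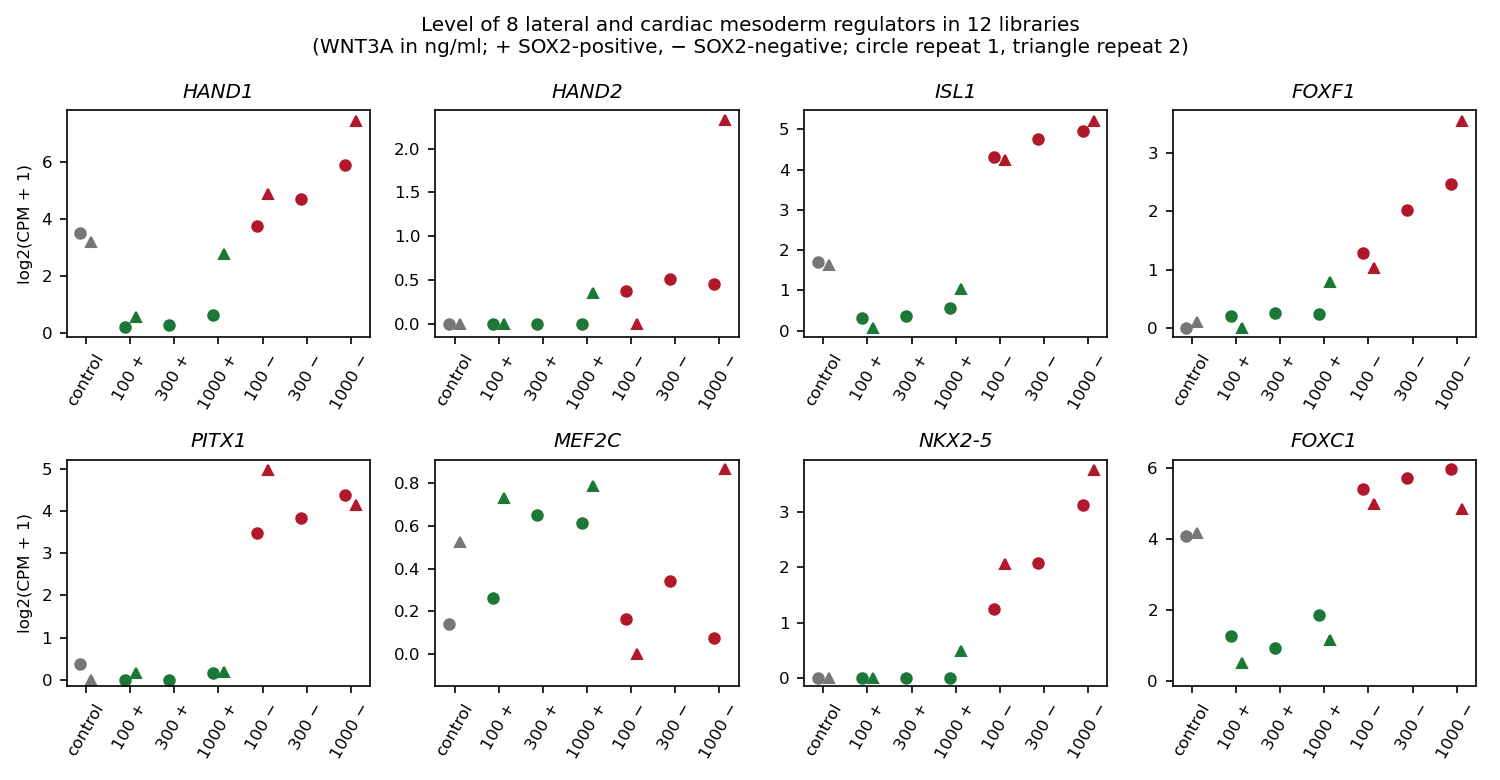
Level of each of the 8 regulators in every library, as log2(CPM + 1) on axes of their own, against the group (control, then WNT3A dose in ng/ml with + for SOX2-positive and − for SOX2-negative); circles are replicate 1 and triangles replicate 2. HAND1, ISL1 and FOXC1 have controls between the gates, FOXF1, PITX1 and NKX2-5 are near 0 outside SOX2-negative cells, HAND2 stands out in 1 library at 4.0 CPM, and MEF2C stays under 1 CPM.

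HAND1 was at 12.6 and 28.7 CPM in SOX2-negative cells at 100 ng/ml, 25.4 at 300 ng/ml, and 58.8 and 177 at 1000 ng/ml. In SOX2-positive cells it was at 0.149 and 0.453, then 0.19, then 0.531 and 5.88 CPM at the same doses, and in control at 10.4 and 8.2. Control colonies thus lay below all SOX2-negative and above all SOX2-positive libraries, and replicate 2 was above replicate 1 in each of the 4 treated groups that have both. The log2 fold change between gates was 5.59 ± 0.69 (SE, edgeR adjusted p = 0.00019). Without SOX2-positive replicate 2 at 1000 ng/ml, the library with 5.88 CPM, it was 6.90. Among SOX2-positive libraries, that one had the highest level of every member except FOXC1.

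HAND2, the paralog of HAND1, was barely read. Both controls and 4 of 5 SOX2-positive libraries had 0 counts of it, and SOX2-positive replicate 2 at 1000 ng/ml had 0.271 CPM. SOX2-negative cells had 0.299 and 0 CPM at 100 ng/ml, 0.428 at 300 ng/ml, and 0.372 and 4.0 at 1000 ng/ml. Of the 104 counts at 1000 ng/ml, 97 came from replicate 2. The gates overlapped at 100 ng/ml and did not at 1000 ng/ml. The difference between gates did not pass (edgeR adjusted p = 0.11). Against control at 1000 ng/ml the level was at least 37.8-fold higher, taking 3 counts over the control group as the limit, and it did not pass either (edgeR adjusted p = 0.061).

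ISL1 varied little between replicates in SOX2-negative cells. It was at 18.8 and 17.9 CPM at 100 ng/ml, 26.2 at 300 ng/ml, and 30.1 and 36.1 at 1000 ng/ml. SOX2-positive libraries had 0.248, 0.0412, 0.285, 0.472 and 1.04 CPM in the order 100 (replicates 1 and 2), 300 and 1000 ng/ml (replicates 1 and 2), and controls 2.29 and 2.12. No SOX2-negative library was below 17.9 and no other above 2.29 CPM. The log2 fold change between gates was 6.21 ± 0.35 (SE, edgeR adjusted p = 1.3e-06), the smallest p among the 8, and 7.01 without SOX2-positive replicate 1 at 100 ng/ml.

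NKX2-5 was read in SOX2-negative cells at 1.38 and 3.16 CPM at 100 ng/ml, 3.21 at 300 ng/ml, and 7.82 and 12.6 at 1000 ng/ml. Both controls and 4 of 5 SOX2-positive libraries had 0 counts, and SOX2-positive replicate 2 at 1000 ng/ml had 0.407 CPM. At 100 ng/ml the level was at least 35.8-fold higher in SOX2-negative than in SOX2-positive cells (edgeR adjusted p = 0.0096). At 1000 ng/ml the log2 fold change was 5.51 ± 1.04 (SE, edgeR adjusted p = 0.0099). The call at 100 ng/ml was lost without SOX2-positive replicate 2 at that dose (edgeR adjusted p = 0.07), and the call at 1000 ng/ml without SOX2-negative replicate 2 (0.071) and with DESeq2 (adjusted p = 0.14). At 1000 ng/ml the log2 fold change was 4.62 without SOX2-positive replicate 1, and replicate 2 held all 9 SOX2-positive counts. The fitted mean over both doses, which depends on the prior count, was 7.05, 9.67 without that library and 7.73 with 3 doses averaged. The mean over both doses was called in each of these (edgeR adjusted p = 0.00083 with all libraries).

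FOXF1 was low but ordered in the same way. SOX2-negative cells had 1.44 and 1.03 CPM at 100 ng/ml, 3.05 at 300 ng/ml, and 4.52 and 10.7 at 1000 ng/ml. SOX2-positive cells had 0.149 and 0, then 0.19, then 0.177 and 0.724 CPM, and controls 0 and 0.0732. The gates did not overlap: the lowest SOX2-negative library was above the highest SOX2-positive one. At 100 ng/ml the ratio of 48 to 3 counts, scaled to library size, was 17.7 (exact 95% interval 5.71 to 88.9, counting error only), and at 1000 ng/ml that of 345 to 19 counts was 16.5 (10.4 to 27.7). The mean over both doses was called (log2 fold change 4.03 ± 0.74 (SE), edgeR adjusted p = 0.0027). That mean was 5.87 without SOX2-positive replicate 1 at 100 ng/ml and 4.71 without SOX2-positive replicate 2 at 1000 ng/ml, and was called in both. The call at 100 ng/ml (edgeR adjusted p = 0.038) was lost without SOX2-positive replicate 2 (0.22) or SOX2-negative replicate 2 (0.061) at that dose, without SOX2-negative replicate 2 at 1000 ng/ml (0.066), with identifiers kept apart (0.058) and with only the compared groups (0.096). The call at 1000 ng/ml (edgeR adjusted p = 0.021) was lost without SOX2-positive replicate 1 (0.13) or 2 (0.054) or SOX2-negative replicate 2 (0.18).

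PITX1 was near 0 outside SOX2-negative cells: 0.305 and 0 CPM in control, and 0, 0.124, 0, 0.118 and 0.136 in SOX2-positive cells in the order of doses given for ISL1. SOX2-negative cells had 10.2 and 30.2 CPM at 100 ng/ml, 13.3 at 300 ng/ml, and 19.9 and 16.6 at 1000 ng/ml. Its highest value was thus at the lowest dose, in replicate 2 at 100 ng/ml, the library that stood apart on the second component. The log2 fold change between gates was 7.61 ± 0.69 (SE, edgeR adjusted p = 2.6e-05). It rests on 8 counts in 4 SOX2-positive libraries, and replicate 2 held all 3 counts at 100 ng/ml. The fitted value was 9.41 without that library, a value that depends on the prior count, and 8.78 with 3 doses averaged; both were called.

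FOXC1 was at 41.9 and 31.1 CPM at 100 ng/ml, 52.4 at 300 ng/ml, and 61.8 and 27.9 at 1000 ng/ml in SOX2-negative cells. SOX2-positive libraries held 1.39 and 0.412, then 0.903, then 2.65 and 1.22 CPM, and the controls 16.2 and 16.9. The controls lay between the gates, as for HAND1 and ISL1, and in both gates at both doses replicate 1 was above replicate 2, the reverse of HAND1. The log2 fold change between gates was 4.96 ± 0.41 (SE, edgeR adjusted p = 1.3e-05).

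MEF2C, the partner of the cardiac factors, did not follow them. SOX2-negative libraries had 0.12, 0, 0.268, 0.0532 and 0.824 CPM by the same order of doses. It was at 0.198, 0.66, 0.57, 0.531 and 0.724 in SOX2-positive cells, and 0.102 and 0.439 in control. All 12 values were under 1 CPM, and over both doses the gates overlapped. At 100 ng/ml alone both SOX2-negative libraries were below both SOX2-positive ones, and at 1000 ng/ml both SOX2-positive libraries were above both controls; neither difference passed (edgeR adjusted p = 0.25 and 0.75). The difference between gates was -1.69 ± 1.09 (SE, log2, edgeR adjusted p = 0.3).

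**Figure D2:**
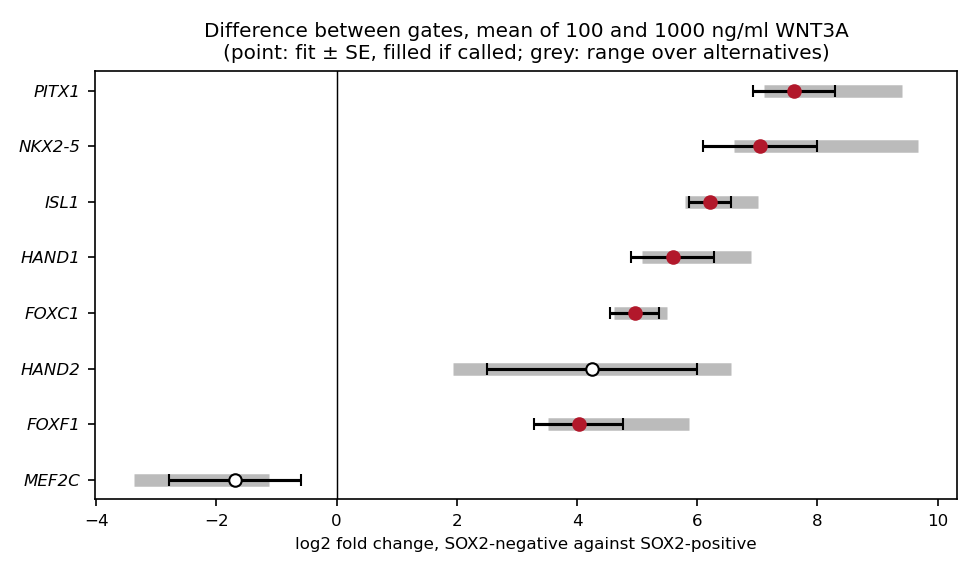
Log2 fold change of each regulator between SOX2-negative and SOX2-positive cells (x axis), averaged over 100 and 1000 ng/ml WNT3A; points are edgeR estimates with SE, filled where called, and grey bars span the alternative analyses. The 6 called genes lie at 4.03 to 7.61; the points of HAND2 and NKX2-5 depend on the prior count, since some of their groups have no counts.

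Per kilobase of the longest coding transcript, HAND1 had the highest mean of the members in SOX2-negative cells at 39.8 ± 42.7 CPM per kb (SD, n = 4, 100 and 1000 ng/ml). ISL1 followed with 10.5 ± 3.61, FOXC1 with 10.4 ± 3.89, PITX1 with 7.99 ± 3.48 and NKX2-5 with 3.66 ± 2.96 CPM per kb. FOXF1 had 1.26 ± 1.27, HAND2 0.42 ± 0.681 and MEF2C 0.033 ± 0.0511 CPM per kb. The SDs of neighbours in this order overlap, and that of HAND1 exceeds its mean. The order also changed with dose: HAND1 was at 11.9 ± 6.55 CPM per kb at 100 ng/ml and 67.7 ± 47.9 at 1000 ng/ml (SD, n = 2 each), and in replicate 1 at 100 ng/ml FOXC1 (10.7) and ISL1 (7.66) were above HAND1 (7.23). HAND1 alone made up 14.5% to 61.9% of the summed CPM of the 8 genes in these 4 libraries, least in replicate 1 at 100 ng/ml and most in replicate 2 at 1000 ng/ml.

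Each gate was also set against control. Control colonies were separate cultures kept for 3 days, not the starting state of the treated cells, so they cannot show which gate moved. The 4 comparisons share the 2 control libraries, so their values are given side by side only. SOX2-negative cells at 100 ng/ml had ISL1 (log2 fold change 3.06 ± 0.39 SE, edgeR adjusted p = 0.00046), PITX1 (7.19 ± 0.93, 0.00046), FOXF1 (adjusted p = 0.021) and NKX2-5 (adjusted p = 0.0073, at least 37.9-fold) above control, which makes 4 of 8 against 11.9% of all genes called higher. FOXF1 there had 48 counts against 2, a ratio of 28.1 (exact 95% interval 7.37 to 239). PITX1 and NKX2-5 passed the filter on low counts only through SOX2-negative cells. Their direction in the count of 4 was thus largely set by the filter. HAND1 (1.16 ± 0.76, edgeR adjusted p = 0.3) and FOXC1 (1.14 ± 0.47, 0.11) did not pass, although both SOX2-negative libraries lay above both controls for each gene. Leaving out control replicate 1 ended the call of FOXF1 (edgeR adjusted p = 0.13), and leaving out control replicate 2 ended those of FOXF1 (0.07) and NKX2-5 (0.054).

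At 1000 ng/ml, 5 of 8 were above control, against 10.7% of all genes called higher. HAND1 was among them, with a log2 fold change of 3.67 ± 0.82 (SE, edgeR adjusted p = 0.01). PITX1 and NKX2-5 were also among the 5, with their direction again largely set by the filter. ISL1 was at 3.91 ± 0.40 (edgeR adjusted p = 1e-04) and PITX1 at 7.04 ± 0.93 (0.00048). NKX2-5 was at least 165-fold higher (edgeR adjusted p = 0.0018), and FOXF1, with 345 counts against 2, had a ratio of 188 (exact 95% interval 51.7 to 1560, edgeR adjusted p = 0.002). FOXC1 did not pass (1.44 ± 0.47, edgeR adjusted p = 0.061). It did with the repeat as a block (1.29, edgeR adjusted p = 0.029), with no filter (5.5e-05) and with only the compared groups (0.01). DESeq2 called it too (adjusted p = 0.017), as did edgeR with some single libraries left out. The call of HAND1 was lost without control replicate 1 (edgeR adjusted p = 0.075), control replicate 2 (0.11) or SOX2-negative replicate 2 at 1000 ng/ml (0.089). HAND1 was at 2.65 without the last of these. Control replicate 1 held all 6 control counts of PITX1, and without control replicate 2 its log2 fold change was 5.87 at 1000 and 6.02 at 100 ng/ml.

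In SOX2-positive cells no member was called above control. Of 17047 genes tested, only 719 at 100 ng/ml and 954 at 1000 ng/ml were called in either direction. The absence of such a call among 8 genes therefore says little about the members. At 100 ng/ml HAND1 fell by 4.87 ± 1.05 (SE, log2, edgeR adjusted p = 0.026), ISL1 fell by 3.95 ± 0.56 (0.0042) and FOXC1 fell by 4.23 ± 0.58 (0.0036). These are 3 of 8, against 1.53% of all genes called lower. At 1000 ng/ml FOXC1 fell by 3.11 ± 0.54 (edgeR adjusted p = 0.0083), 1 of 8 against a background of 1.97%. There ISL1 was at -1.5 ± 0.44 (edgeR adjusted p = 0.081) and HAND1 at -1.49 ± 0.80 (0.37), neither called. The call of HAND1 at 100 ng/ml was lost without control replicate 1 (edgeR adjusted p = 0.098), control replicate 2 (0.1), SOX2-positive replicate 1 (0.21) or SOX2-positive replicate 2 (0.13). Without SOX2-positive replicate 1 and replicate 2 in turn, the changes at 100 ng/ml were -5.55 and -3.12 for ISL1 and -5.31 and -3.57 for FOXC1. The call of FOXC1 at 1000 ng/ml was lost without control replicate 2 (edgeR adjusted p = 0.06) or SOX2-positive replicate 2 (0.066).

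Markers of other cell types stood high in the control colonies that hold HAND1, ISL1 and FOXC1. The list of 14 amnion and trophoblast genes summed to 332 to 413 CPM in control, 42.2 to 118 in SOX2-positive and 186 to 243 in SOX2-negative libraries. Of its genes, GATA3 was at 82.6 and 59.2 CPM in control, 2.53 to 11.4 in SOX2-positive and 140 to 180 in SOX2-negative libraries. CGA had no count in any group and TP63 none in control. The list of 12 neural crest and placode genes summed to 274 to 345 CPM in control, 52.4 to 92.6 in SOX2-positive and 37.5 to 73.1 in SOX2-negative libraries. None of its genes was at 0 in control, nor in SOX2-negative cells at 300 or 1000 ng/ml or SOX2-positive cells at 1000 ng/ml. TFAP2A, a gene of both lists named after its values were seen, was at 211 and 155 CPM in control, a large part of both sums there. It was at 42.1 CPM in SOX2-positive replicate 2 at 1000 ng/ml, the library with the highest SOX2-positive HAND1, and at 5.28 to 13.2 in the other SOX2-positive libraries. The part of these cell types in the control levels of the 3 genes was not tested. In bulk RNA, fewer cells of a type and less RNA per cell cannot be told apart.

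With WNT3A dose, 6 of the 8 members were ordered from 100 to 300 to 1000 ng/ml, lowest to highest, in SOX2-negative replicate 1, the repeat that has all 3 doses. This is 1 library a dose with no test, and 21.8% of all genes tested had the same order. HAND1, ISL1, FOXF1, PITX1, NKX2-5 and FOXC1 were the 6. In replicate 2, HAND1, HAND2, ISL1, FOXF1, MEF2C and NKX2-5 were higher at 1000 than at 100 ng/ml, while PITX1 went from 30.2 to 16.6 CPM and FOXC1 from 31.1 to 27.9. HAND1, HAND2, ISL1, FOXF1 and NKX2-5, 5 of the 8, therefore had both libraries at 1000 ng/ml above both at 100 ng/ml, which held for 21.6% of all genes tested. For HAND2 this rests in replicate 1 on 7 counts at 1000 and 5 at 100 ng/ml. Replicate 2 at 100 ng/ml is the library that stood apart on the second component.

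No member passed the test of 1000 against 100 ng/ml in SOX2-negative cells (background 0% of genes called by edgeR). At an unadjusted p under 0.05 there were 4 members and 3108 genes, and DESeq2 called 412 genes. The log2 changes were 2.51 ± 0.77 (SE) for HAND1, 2.63 ± 0.88 for FOXF1, 2.16 ± 0.84 for NKX2-5 and 0.85 ± 0.35 for ISL1, with edgeR adjusted p of 0.25, 0.25, 0.26 and 0.26. PITX1 was at -0.15 ± 0.62 (edgeR adjusted p = 0.91) and FOXC1 at 0.30 ± 0.46 (0.72). In SOX2-positive cells the dose contrast called none either (background 0% by edgeR, 3 members and 294 genes at an unadjusted p under 0.05, DESeq2 5 genes). ISL1 was at 2.45 ± 0.62 and HAND1 at 3.38 ± 1.08 there, each with an edgeR adjusted p of 1. The dose effect did not pass a test of difference between gates for any member (background 0% by edgeR, 0 members and 1349 genes at an unadjusted p under 0.05, DESeq2 16 genes).

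**Figure D3:**
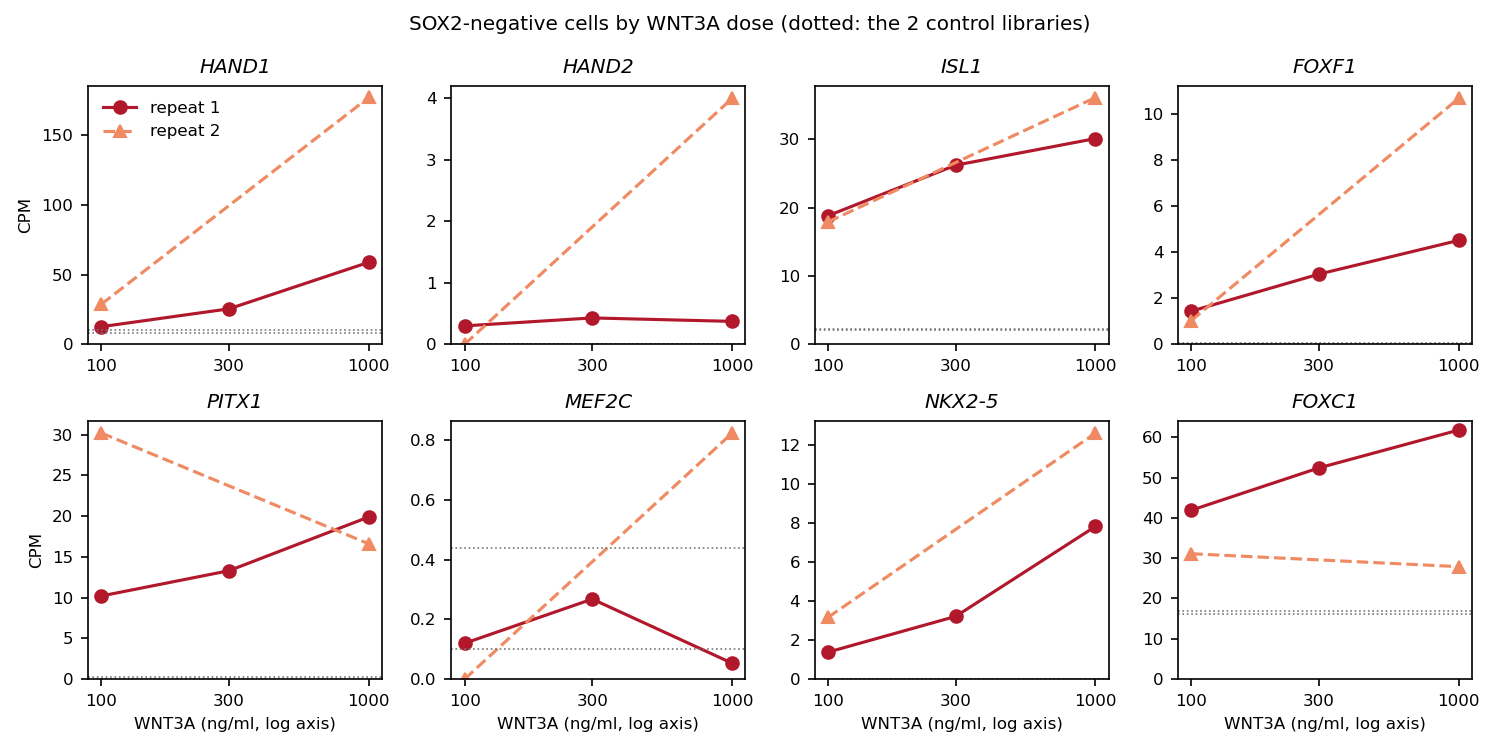
CPM of each regulator in SOX2-negative cells against WNT3A dose (ng/ml, log axis), with replicate 1 solid over 3 doses, replicate 2 dashed over 2, and the 2 control libraries dotted. HAND1 reaches 58.8 and 177 CPM at 1000 ng/ml, whereas the PITX1 and FOXC1 lines of the repeats run in opposite directions.

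The SOX2-negative repeats at 1000 ng/ml differed unevenly among the members. Replicate 2 had 3.00 times the HAND1, 10.7 times the HAND2 and 2.37 times the FOXF1 of replicate 1. ISL1 was 1.20 times and NKX2-5 1.62 times as high, whereas PITX1 was at 0.835 and FOXC1 at 0.452 times the level of replicate 1. MEF2C, at 0.824 against 0.0532 CPM, was higher as well.

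Close paralogs of the members were in part higher in SOX2-negative cells. Here and below, rose and fell between gates mean higher or lower in SOX2-negative than in SOX2-positive cells. For this list and those that follow, 12.9% of all genes tested were called higher between gates and 11.1% lower. In these lists, too, a gene that passed the filter on low counts only through a single gate had its direction largely set by the filter. Of 14 paralogs 10 were tested, and 5 of them were higher in SOX2-negative than in SOX2-positive cells and none lower (median log2 fold change 3.96, against 0.01 for all genes). TWIST1, a helix-loop-helix relative of the HAND factors, was at 3.41 to 11 CPM in SOX2-negative libraries and at most 0.808 elsewhere (5.59 ± 0.62 SE, edgeR adjusted p = 9.1e-05). NKX2-2, a relative of NKX2-5 known from ventral neural tube and pancreas, had 2.39 and 4.91 CPM at 100 ng/ml, 1.39 at 300 ng/ml, and 0.638 and 1.11 at 1000 ng/ml in SOX2-negative cells, and no count in SOX2-positive or control libraries. Its dose order was the reverse of that of NKX2-5. NKX2-2 passed the filter only through SOX2-negative cells. FOXC2 reached only 1.44 to 2.27 CPM in SOX2-negative libraries (4.16 ± 0.86, edgeR adjusted p = 0.0055).

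Cardiac co-regulators rose with the members in part. Of 20 genes 19 were tested, and 12 were higher in SOX2-negative cells and none lower (median log2 fold change 2.65). GATA4, a zinc finger partner of NKX2-5, was at 111 to 235 CPM in SOX2-negative libraries, 0.701 to 3.62 in SOX2-positive and 0 and 0.146 in control (6.62 ± 0.28 SE, edgeR adjusted p = 4.3e-07). GATA6 was at 68.7 to 234 CPM in SOX2-negative libraries (6.18 ± 0.50, edgeR adjusted p = 1.1e-05) and TBX3, a T-box repressor, at 80.0 to 251 (6.32 ± 0.47, 6.2e-06). TBX5, the factor of the left ventricle and forelimb, was not tested, with at most 0.177 CPM in any library; it is named after its values were seen.

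Of 18 cardiac muscle genes 14 were tested. In SOX2-negative cells 4 were higher and 2 lower (median log2 fold change 0.83), against 12.9% higher and 11.1% lower of all genes tested. TNNC1, slow and cardiac troponin C, was at 31.2 to 90.9 CPM in SOX2-negative and 1.33 to 2.23 in SOX2-positive libraries (4.71 ± 0.30 SE, edgeR adjusted p = 2.6e-06). MYL4 and MYL7, atrial myosin light chains, were at 3.83 to 16.2 and 4.74 to 8.67 CPM in SOX2-negative libraries and called higher (edgeR adjusted p = 1.4e-05 and 0.00036). RYR2, the calcium release channel of cardiac muscle, fell by 2.61 ± 0.36 (edgeR adjusted p = 0.00038). TNNT2, cardiac troponin T and named after its values were seen, was at 0.107 to 0.479 CPM in SOX2-negative libraries and did not pass (edgeR adjusted p = 0.68), and MYL2, the ventricular light chain, had no count in any library.

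Other lateral plate and limb genes gave 6 higher and 1 lower of 16 tested (median log2 fold change 1.67). SNAI2, a repressor of epithelial genes, rose by 3.97 ± 0.33 (SE, edgeR adjusted p = 1.3e-05) and PDGFRA, a receptor of early mesoderm, by 3.03 ± 0.37 (2e-04), whereas BNC2, a zinc finger gene, fell by 5.37 ± 0.66 (0.00019). Among genes of the BMP pathway, 13 of 16 tested were higher and 1 lower (median log2 fold change 2.05). BMP2, a ligand, was at 225 to 302 CPM in SOX2-negative and 5.13 to 7.60 in SOX2-positive libraries (5.24 ± 0.20 SE, edgeR adjusted p = 4.3e-07). SMAD6, an inhibitor that BMP signalling induces, rose by 3.76 ± 0.19 (edgeR adjusted p = 6.5e-07) and MSX1, a homeodomain target, by 5.31 ± 0.35 (3.5e-06).

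Genes of other mesoderm and of endoderm moved in the same libraries. Of 14 paraxial mesoderm genes 10 were tested, and 5 were higher and none lower between gates (median log2 fold change 1.43). DLL3, a Notch ligand of the presomitic mesoderm, was at 84.1 to 210 CPM in SOX2-negative and at most 6.51 in other libraries. Further genes of that list are named after their values were seen. MSGN1 was at most 1.01 and MEOX1 at most 0.18 CPM in SOX2-negative libraries. DLL1 was higher between gates, but at 6.2 to 17 CPM in SOX2-negative libraries against 69.8 and 61.2 in control. Intermediate mesoderm genes were higher in 5 of 9 between gates (median 2.20), with LHX1 at 130 to 344 CPM in SOX2-negative libraries. Against control, 1 of these 9 was higher in SOX2-negative cells at 100 ng/ml (background 11.9%). At 1000 ng/ml 2 were higher (background 10.7%) and 1 lower. OSR1 and PAX8, named after their values were seen, were at most 2.6 and 1.11 CPM in SOX2-negative libraries. Definitive endoderm genes were higher in 11 of 12 (median 5.58), and their summed CPM was 959 to 1700 in SOX2-negative, 45.2 to 109 in SOX2-positive and 84.7 to 91.2 in control libraries. SOX17 was at 340 to 827 and HNF4A at 18.1 to 32.7 CPM in SOX2-negative cells. GATA4 and GATA6 above are also known from endoderm, and the part of endoderm cells in the levels of the 8 members was not tested.

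**Figure D4:**
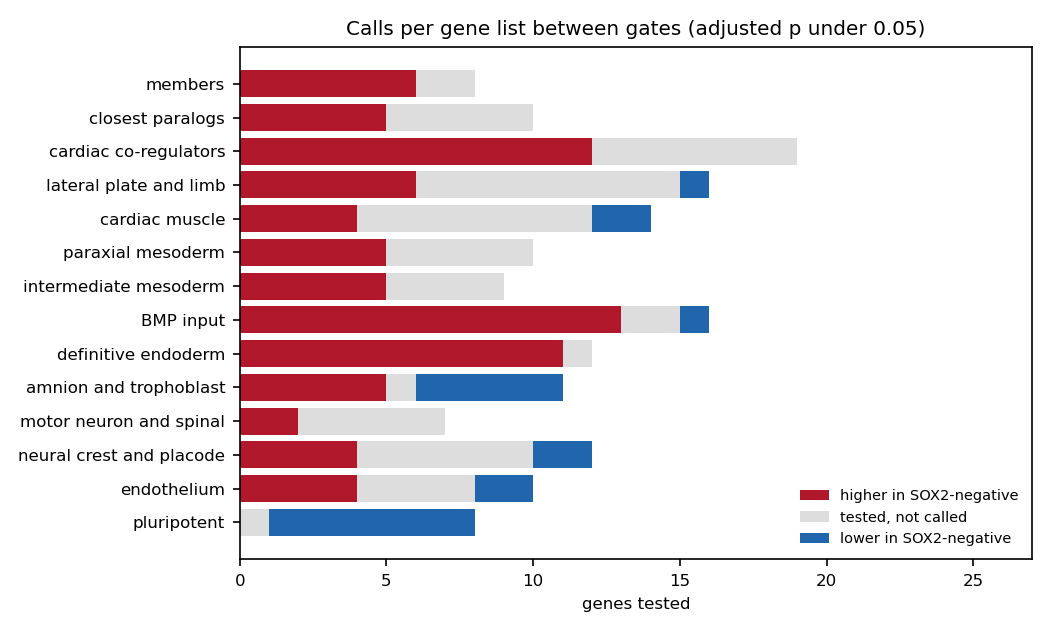
Number of tested genes per list (x axis) that were higher (red), lower (blue) or not called (grey) in SOX2-negative against SOX2-positive cells at an edgeR adjusted p under 0.05. Definitive endoderm has 11 of 12 higher and the 8 regulators 6 of 8. The pluripotent list has 7 of 8 lower and includes SOX2, on whose reporter the cells were sorted.

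Marker lists of ISL1's and FOXC1's other tissues were also read, and these counts stand against the 12.9% of all genes called higher and 11.1% called lower. Motor neuron and spinal genes gave 2 higher of 7 tested, STMN2 (48.0 to 69.3 CPM in SOX2-negative libraries) and MNX1 (5.27 to 22.8), a gene also known from endoderm and pancreas. Their list summed to 165 to 381 CPM in SOX2-negative, 122 to 188 in SOX2-positive and 289 to 356 in control libraries, so the gates overlap. Neural crest and placode genes gave 4 higher and 2 lower of 12, and FOXD3, a neural crest and pluripotency factor, fell by 7.10 ± 0.38 (SE, edgeR adjusted p = 9.5e-07). Amnion and trophoblast genes gave 5 higher and 5 lower of 11, where KRT7 fell by 7.15 (edgeR adjusted p = 6.8e-06) and GATA3 rose by 4.91 (1.1e-06). Endothelial genes gave 4 higher and 2 lower of 10, with CDH5, the endothelial cadherin, at 2.69 to 3.69 CPM in SOX2-negative libraries.

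The genes whose log2 CPM followed each member most closely over the 12 libraries were sought among 11981 genes of at least 5 CPM on average. As the libraries fall into gates, these Pearson correlations mostly reflect the gate and describe likeness only. For HAND1 they were SYNDIG1 (r = 0.97), FAM171A1 and PCDH17 (both 0.95), and for ISL1 PLXNA2 (0.99), BMPER and DUSP4 (both 0.98). FOXF1 was most like SNAI2 and FLRT2 (both 0.98) and FMOD (0.97), and NKX2-5 like NRP1 (0.98), FMOD and TMEM243 (both 0.97). PITX1 was most like COL9A2 (0.99), NPC1L1 and SEMA3G (both 0.98), and FOXC1 like PRIMA1 (0.98), SPCS2 and SH3RF1 (both 0.97). FMOD, an extracellular matrix proteoglycan gene, thus stood in the lists of both FOXF1 and NKX2-5. HAND2 (led by CALU, 0.96) and MEF2C (led by PPP1R3E, 0.91) have too few counts for their likeness to be read.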

How the data were processed

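Messenger RNA was selected by poly-A and sequenced as paired ends of 150 bases on an Illumina instrument, per the labels' protocols. Salmon and the build GRCh38 are named in the submitters' processing notes, and versions and the strand setting are not given in the sources used here. The authors deposited estimated counts per gene for 12 libraries, not scaled between libraries. Groups and replicate numbers come from sample titles.

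Estimated counts of identifiers that share a symbol were summed (37951 identifiers, 35940 symbols) and rounded. The test was that of edgeR 4.0.16 (R 4.3.3), with filterByExpr (minimum count 10, minimum total 15), TMM, 1 mean for each of 7 groups over all 12 libraries, quasi-likelihood test, two-sided, Benjamini-Hochberg over 17047 genes, threshold 0.05. This left 5 residual degrees of freedom and a median prior of 5.6. Single libraries at 300 ng/ml entered no main contrast. SE is the log2 fold change divided by the root of F. For a group without counts, folds are given as bounds computed with 3 counts in that group. Intervals of ratios are exact at 95% and, like these limits, cover counting error only. Likeness used log2 CPM with a prior count of 2. Scripts were tested on simulated data.

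The named genes are the 8 members, up to 4 genes of each list with the lowest adjusted p between gates, and 3 most like each member. Others are marked, and some genes that the rule took are left out here. The members and lists were chosen with earlier results of these data known, and the motifs after the sequences had been seen.

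The series description calls replicate 2 a biological repeat, and the sources used here do not say that libraries of the same number shared a run. The main test did not pair libraries by replicate number, and a replicate block was used only as an alternative. Deviations of same-numbered libraries correlated at -0.06 to 0.22 over 10 pairs of groups, 5 of them over 0.1. Replicates of a group differed beyond sampling noise (chi-square over degrees of freedom 21.7 to 134). Alternatives were another normalization and tool, no filter, identifiers apart, only the compared groups, 3 doses averaged, a replicate block, and each library left out.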

Additional observations from a re-analysis of the deposited data

Results flagged for a closer look

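HAND1, ISL1 and FOXC1 lay above both controls in all 4 SOX2-negative libraries at 100 and 1000 ng/ml and below both in all 4 SOX2-positive ones. The direct test of that difference, SOX2-negative against SOX2-positive, gave log2 fold changes of 5.59, 6.21 and 4.96, each called by edgeR as given above. Every group holds 2 libraries or 1, too few to check a single library within its group.

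The 300 ng/ml libraries enter no main comparison, only the alternative with 3 doses averaged, and 7 members exceeded both controls and the level of 3 counts in the SOX2-negative one. HAND1 was at 25.4 CPM, HAND2 at 0.428, ISL1 at 26.2, FOXF1 at 3.05, PITX1 at 13.3, NKX2-5 at 3.21 and FOXC1 at 52.4. In the SOX2-positive library FOXF1 was at 0.19 and MEF2C at 0.57 CPM, against at most 0.0732 and 0.439 in control. These levels rest on 1 library each and were not tested, and the share of all genes above control in this way was not computed.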

How the results depend on the processing

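Of 1300 values recomputed under alternatives, 1234 kept their direction and side of the threshold, 23 lost a call, 25 gained one and 18 changed sign, all 18 in uncalled values with a library left out. The 6 calls between gates averaged over doses held under all 18 alternatives. Leaving out 1 library gave 2 to 4 members called for SOX2-negative at 100 ng/ml against control (2 without control replicate 2) and 0 to 1 for SOX2-positive at 1000 ng/ml against control. For the latter, no filter gave 5 members and DESeq2 gave 2. For 1000 against 100 ng/ml, no filter gave 3 members in SOX2-negative and 2 in SOX2-positive cells, against 0. The cause was not tested.

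For the values that changed sign with a library left out, ranges of log2 change were -3.44 to 0.38 for MEF2C between gates at 1000 ng/ml and -2.27 to 2.07 for MEF2C in SOX2-negative at 1000 ng/ml against control. In SOX2-positive at 100 ng/ml against control they were -3 to 3.63 for FOXF1, -4.54 to 3.63 for PITX1 and -0.47 to 2.03 for MEF2C, and at 1000 ng/ml -1.22 to 4.51 for PITX1. For 1000 against 100 ng/ml they were -0.71 to 0.84 for PITX1 and -0.38 to 0.76 for FOXC1 in SOX2-negative, and -0.07 to 1.64 for MEF2C in SOX2-positive cells. For the difference of the dose effect they were -1.9 to 1.75 for HAND1, -1.8 to 3.93 for HAND2, -0.53 to 5.76 for MEF2C and -3.99 to 2.16 for NKX2-5.

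The count of all genes called moved by over 1.5 times when 1 library was left out in each comparison that called any: 2638 to 6834 between gates averaged over doses (4085 with all), 928 to 7003 at 100 ng/ml (2756), 935 to 3000 at 1000 ng/ml (1922), 1409 to 6991 and 1398 to 4674 for SOX2-negative at 100 and 1000 ng/ml against control (3515 and 3031), and 85 to 1507 and 128 to 1803 for SOX2-positive (719 and 954). It was 0 to 5737 for the dose contrast in SOX2-negative cells and 0 to 3794 for the difference between gates, against 0. Other settings gave 1327 to 4379 at 100 ng/ml between gates, 1797 to 4563 for SOX2-negative at 100 ng/ml against control, 558 to 2832 and 734 to 2184 for SOX2-positive against control, 0 to 1551 and 0 to 107 for the dose contrasts and 0 to 308 for their difference. The replicate block changed the call of no member except FOXC1 in SOX2-negative at 1000 ng/ml against control (log2 fold change 1.29, edgeR adjusted p = 0.029), and gave 4105 genes between gates. Where an arm is left with 1 library, it is assumed to vary like the other groups.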

Other observations

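Several signalling and ectodermal genes of the lists had patterns of their own; they are named after their values were seen. BMP4, a ligand of the pathway upstream of HAND1 and ISL1, was at 62.1 and 53 CPM in control, 3.62 to 7.31 in SOX2-positive libraries, and 11.6 and 21.2 at 100 ng/ml, 19.7 at 300 ng/ml, and 41.4 and 81.1 at 1000 ng/ml in SOX2-negative cells. Its controls were above every SOX2-positive library, as for HAND1. KDR, the VEGF receptor of early lateral mesoderm and endothelium, was at 96.1 to 190 CPM in SOX2-positive libraries and 7.67 and 10.5 in control. In SOX2-negative cells KDR was at 20 and 22.5 CPM at 100 ng/ml, 42.4 at 300 ng/ml, and 82.8 and 271 at 1000 ng/ml. Between gates KDR fell by 1.08 on the log2 scale (edgeR adjusted p = 0.026), although replicate 2 at 1000 ng/ml was above all SOX2-positive libraries. PRRX1, a limb and lateral plate homeodomain gene, was at 18.3 CPM in that library, 0 to 0.428 in the other SOX2-negative libraries and 3.4 and 6.19 in control. DLX5 was at 75 and 67.8 CPM in control and at most 1.18 in any treated library.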
